A study of Mus musculus with 2 samples.

Results

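The 10 genes described here are the core of the mammalian circadian clock and its near outputs, namely Arntl, Clock, Per1, Per2, Per3, Cry1, Cry2, Nr1d1, Dbp and Nfil3. They were taken by gene name, with every transcript model that the authors assigned to them, from among 16910 annotated nuclear genes with at least 1 read. The data are long-read RNA sequencing of adrenal glands of B6CASTF1/J mice, the F1 of C57BL/6J and CAST/EiJ, all female and 2 months old. Total RNA is the stated starting material, with an input of 1 µg given for replicate 1 alone, and no treatment or second genotype is given. The 2 libraries, replicate 1 and replicate 2, form 1 group, and the labels give no hour of collection. The biosample labels number the animals 3 and 4, yet both libraries carry the number 3 in their own label and the same donor identifier. P-values thus speak of this pair of libraries and a gap that could be technical, and every comparison sets replicate 1 against replicate 2.

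The clock is a feedback loop of transcription that runs in nearly every cell. ARNTL (BMAL1) and CLOCK bind E-box sequences as a pair and switch on the Per and Cry genes, whose proteins return to the nucleus and repress that pair. NR1D1 (REV-ERBα) represses Arntl and Nfil3, and the bZIP factors DBP, an activator, and NFIL3 (E4BP4), a repressor, compete at D-box sequences. In the adrenal cortex the clock is known for gating the daily rhythm of glucocorticoid release.

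Replicate 1 held 1209457 reads of annotated nuclear genes and replicate 2 held 502655. Levels are given as CPM, the reads per 1000000 of these reads, and 3 reads, taken as the limit of detection, equal 2.48 CPM in replicate 1 and 5.97 CPM in replicate 2. Each read was counted once whatever its length, so CPM counts reads and was not divided by gene length. All 5 cortex markers were detected, with sums of 56269 CPM (replicate 1) and 74936 CPM (replicate 2). The 5 medulla markers summed to 11580 and 6677 CPM, the 5 adipocyte markers to 7490 and 7598 CPM, the 5 endothelial markers to 413.4 and 535.2 CPM, and the 5 macrophage markers to 604.4 and 660.5 CPM, in replicates 1 and 2. None of 5 kidney markers reached 3 reads in each library, and Kap stood at 0. Markers of a list did not move together, so the sums do not measure a share of cells. In the cortex list Cyp21a1 had 14022 and 28073 CPM but Cyp11a1 20228 and 19861 CPM. In the medulla list Chgb had 5350 and 2344 CPM but Dbh 115.8 and 177.1 CPM. The part of these cell mixtures in the clock gene values was not tested, and in whole glands fewer cells of a type and less RNA per cell cannot be told apart.

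Several sequences carry the results on transcript structure and are given first. They were read from the GENCODE M21 transcripts of build mm10, 5′ to 3′ on the strand of the gene. In Arntl, exon 13 could start at the annotated acceptor or 3 bases further in, and the capitals mark the bases lost (plus strand, chr7:113295564-113299216, the last 30 bases of exon 12 and the first of exon 13).
Arntl exons 12 and 13, annotated acceptor: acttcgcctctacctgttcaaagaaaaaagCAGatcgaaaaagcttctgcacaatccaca
Arntl exons 12 and 13, inner acceptor: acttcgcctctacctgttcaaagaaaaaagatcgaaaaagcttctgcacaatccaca
A 21-base exon, in capitals, could lie between exons 5 and 6 of Arntl (chr7:113280773-113283286).
Arntl exon 5, 21-base exon and exon 6: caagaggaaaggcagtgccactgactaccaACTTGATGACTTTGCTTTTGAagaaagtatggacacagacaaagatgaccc
Arntl exons 5 and 6 without it: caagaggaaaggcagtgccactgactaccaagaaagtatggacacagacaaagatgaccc
Exon 17 of Arntl could begin 15 bases earlier, and the capitals mark the bases gained (chr7:113304383-113306047).
Arntl exons 16 and 17, outer acceptor: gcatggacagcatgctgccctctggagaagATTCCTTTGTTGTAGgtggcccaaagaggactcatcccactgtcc
Arntl intron before the outer acceptor: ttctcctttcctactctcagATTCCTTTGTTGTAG
The intron bases shown in the last line end in AG both where the extension begins and where it ends.

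The other sequences concern Nr1d1 and Dbp. Many Nr1d1 reads belonged to a 4-exon model that begins inside exon 5, and the capitals mark the bases inside that model (minus strand, chr11:98770367-98770486).
Nr1d1 exon 5 around the start of the 4-exon model: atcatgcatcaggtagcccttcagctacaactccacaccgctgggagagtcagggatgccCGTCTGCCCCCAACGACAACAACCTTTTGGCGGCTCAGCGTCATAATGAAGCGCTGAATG
In Dbp, exon 1 was joined either to exon 2, whose start is in capitals, or directly to exon 3 (plus strand, chr7:45705733-45708289 for the join to exon 3).
Dbp exons 1 and 2: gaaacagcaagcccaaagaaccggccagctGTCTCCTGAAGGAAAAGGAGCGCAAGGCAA
Dbp exons 1 and 3: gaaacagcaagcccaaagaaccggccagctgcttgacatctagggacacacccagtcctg

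Clock genes were moderately expressed in the gland. All but Per3 were detected, meaning at least 3 reads in each library, so 9 of 10. Together the members held 468 reads in replicate 1 and 252 in replicate 2, or 387.0 and 501.3 CPM. The mean over the members' sums was 444.1 ± 80.9 CPM (SD, n = 2). Over the 9942 detected genes of the gland the median mean level was 35.2 CPM, and 5 members exceeded it: Nfil3, Arntl, Dbp, Nr1d1 and Cry2.

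The activators stood at unequal levels. Arntl (ENSMUSG00000055116.8, chromosome 7, 113207465 to 113314126, plus strand) had 91 reads in replicate 1 and 46 in replicate 2, or 75.2 and 91.5 CPM, with a mean of 83.4 ± 11.5 CPM. Clock (ENSMUSG00000029238.11, chromosome 5, 76209868 to 76304792, minus strand), its partner, had 17 and 4 reads, or 14.1 and 7.96 CPM, with a mean of 11.01 ± 4.31 CPM. In each library Arntl stood above Clock, and their exact 95% Poisson intervals did not overlap: 60.6 to 92.4 CPM for Arntl against 8.19 to 22.5 CPM for Clock in replicate 1, and 67.0 to 122.1 against 2.17 to 20.4 CPM in replicate 2. The longest Clock transcript spans 9744 bases, and its reads were mostly short of it, as given under the transcripts.

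Among the repressors, the Cry genes were read more often than the Per genes in replicate 1. Cry1 (ENSMUSG00000020038.10, chromosome 10, 85131700 to 85185064, minus strand) had 58 reads in replicate 1 and 11 in replicate 2, or 48.0 and 21.9 CPM. Cry2 (ENSMUSG00000068742.11, chromosome 2, 92403646 to 92434043, minus strand) had 29 and 30 reads, or 23.98 and 59.7 CPM. The order of these cryptochromes thus turned round between libraries, and their intervals did not overlap in either: in replicate 1 36.4 to 62.0 CPM for Cry1 against 16.1 to 34.4 CPM for Cry2, and in replicate 2 10.9 to 39.2 against 40.3 to 85.2 CPM.

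Per2 (ENSMUSG00000055866.9, chromosome 1, 91415982 to 91459324, minus strand), a light- and glucocorticoid-responsive period gene, had 18 reads in replicate 1 and 20 in replicate 2, or 14.9 and 39.8 CPM. Per1 (ENSMUSG00000020893.17, chromosome 11, 69095217 to 69109960, plus strand) had 20 and 10 reads, or 16.5 and 19.9 CPM. Their intervals overlapped in both libraries. Per3 (ENSMUSG00000028957.12, chromosome 4, 151003652 to 151044665, minus strand) had 1 read in replicate 1 and 0 in replicate 2, which leaves it at or under the limit of detection in both.

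The loop receptor and the output factors were the most read members beside Arntl. Nr1d1 (ENSMUSG00000020889.11, chromosome 11, 98767932 to 98775333, minus strand) had 61 reads in replicate 1 and 40 in replicate 2, or 50.4 and 79.6 CPM. Dbp (ENSMUSG00000059824.12, chromosome 7, 45705088 to 45710203, plus strand) had 80 and 41 reads, or 66.1 and 81.6 CPM. Nfil3 (ENSMUSG00000056749.7, chromosome 13, 52967209 to 52981073, minus strand) had 93 and 50 reads, or 76.9 and 99.5 CPM, and led the members with a mean of 88.2 ± 15.96 CPM. In the order of mean levels Nfil3, Arntl and Dbp (73.9 ± 10.9 CPM) did not differ beyond their spread, and the values of Nr1d1 (65.0 ± 20.6 CPM) overlapped with theirs. Then came Cry2 at 41.8 ± 25.2, Cry1 at 34.9 ± 18.4, Per2 at 27.3 ± 17.6, and Per1 at 18.2 ± 2.37 CPM, each within the spread of its neighbour. Clock stood below Per1 in both libraries, with overlapping Poisson intervals. The members read least had the longest transcripts: 4671 bases for Per1, 5833 for Per2, 5999 for Per3 and 9744 for Clock. For Nfil3 and Dbp the longest had 2026 and 1837 bases. The part of transcript length in this order of levels was not tested.

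**Figure D1:**
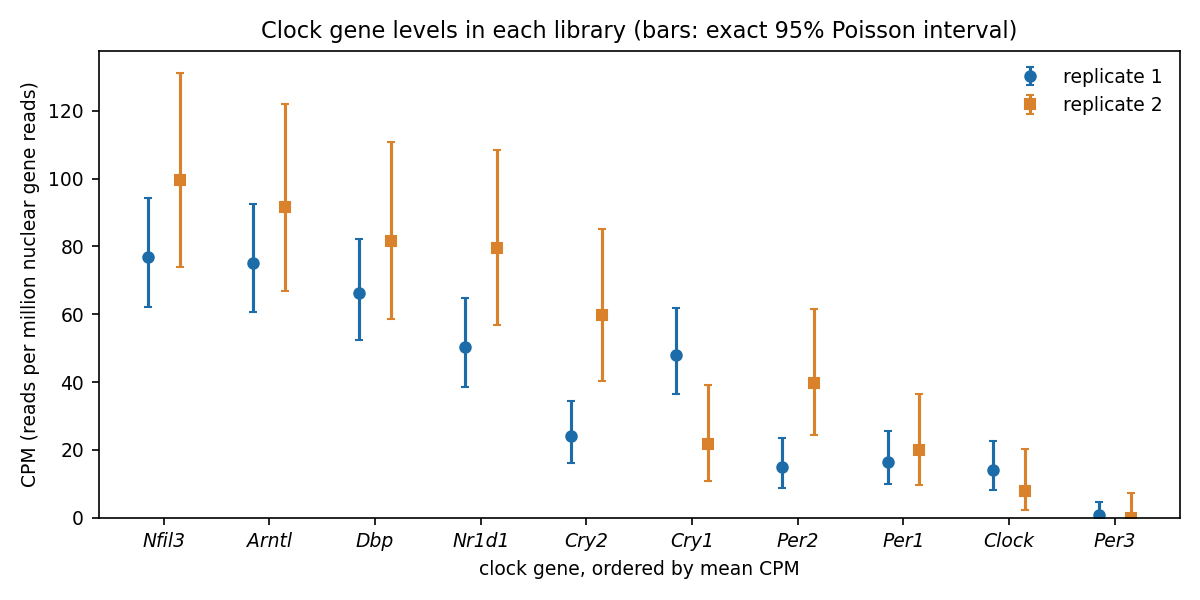
CPM of each clock gene (vertical axis) in replicate 1 (circles, left) and replicate 2 (squares, right), ordered by mean CPM, with exact 95% Poisson intervals as bars. Nfil3, Arntl and Dbp lie highest in both libraries, and Cry1 and Cry2 change places between them.

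Of the 9 members with at least 10 reads over both libraries, 2 differed between the libraries in read count, Per2 and Cry2, both lower in replicate 1. The call needed a Benjamini-Hochberg adjusted p under 0.05, from Fisher's exact test (two-sided) over all 10170 genes tested, and at least a 2-fold difference. By the same rule 9.55% of all genes tested were called in either direction, 5.96% lower and 3.59% higher in replicate 1, against 2 of 9 members. The log2 ratio of replicate 1 over replicate 2 was −1.41 for Per2 (SE of counting 0.46, adjusted p = 0.0241 by the exact test) and −1.31 for Cry2 (SE 0.37, adjusted p = 0.00502 by the exact test). Neither call remained when the trend of the ratio with transcript length and GC content was removed, where Per2 stood at −1.12 (adjusted p = 0.0837) and Cry2 at −0.97 (adjusted p = 0.0702) by the exact binomial test. In replicate 2 the level was 2.67-fold that of replicate 1 for Per2 and 2.49-fold for Cry2.

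Cry1 had the opposite sign to Cry2. Its log2 ratio was 1.08 (SE 0.47), with an adjusted p of 0.0786 by the exact test, which missed the threshold. It passed with the length and GC trend removed (1.26, adjusted p = 0.0294) and with reads of whole annotated transcripts alone (1.10, adjusted p = 0.0478), so the call depends on these choices. For Nr1d1 the ratio was −0.66 (SE 0.29, adjusted p = 0.119 by the exact test). Arntl at −0.29, Dbp at −0.31 and Nfil3 at −0.38 had adjusted p values of 0.566, 0.535 and 0.358, Per1 at −0.30 of 0.884 and Clock at 0.69 of 0.614. Of the 9 members tested, 7 had a negative ratio, against 4720 of all 10170 genes tested. The members' median was −0.31, where the median over all genes tested was 0.06. The fitted trend with length and GC content lay between −0.43 (Per1) and −0.08 (Arntl) for the tested members other than Clock (0.34). With it removed Per1 alone changed sign, to 0.13, while Dbp stood at −0.10 and Arntl at −0.21. The trend used the longest transcript of each gene. For Arntl this is a 1-exon transcript of 3995 bases and not the 20-exon one of 2908 bases that was mostly read.

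**Figure D2:**
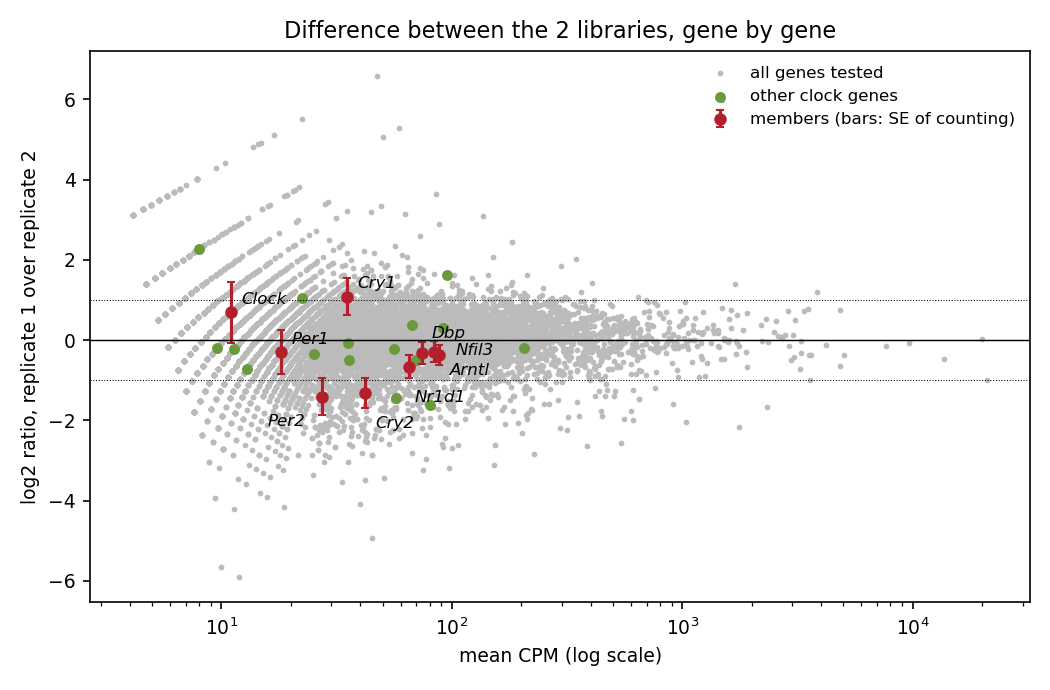
Log2 ratio of replicate 1 over replicate 2 (vertical axis) against mean CPM on a log scale for all 10170 genes tested (grey), the other clock genes (green) and the members (red, bars show the SE of counting). Dotted lines mark 2-fold. Per2 and Cry2 lie under the lower line and Cry1 just over the upper one.

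Another 21 genes tied to the clock, listed with earlier results of these data known, gave the setting. Of these 19 had a read, 15 were detected and 16 were tested, with 3 called against 9.55% of all genes, and a median log2 ratio of −0.21. Rora, a nuclear receptor that activates Arntl at the sites NR1D1 represses, had 175 reads in replicate 1 and 23 in replicate 2, or 144.7 and 45.8 CPM (log2 ratio 1.63, adjusted p = 1.49e-07 by the exact test). Bhlhe40 (DEC1), which competes at E-boxes, had 48 and 61 reads, or 39.7 and 121.4 CPM (log2 ratio −1.61, adjusted p = 2.91e-07 by the exact test). Noct, a rhythmic phosphatase (nocturnin), had 37 and 42 reads, or 30.6 and 83.6 CPM (log2 ratio −1.45, adjusted p = 0.000164 by the exact test). Rora was thus higher in replicate 1 and the other two lower there.

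The remaining genes of that list were not called. Csnk1d, a kinase that marks PER proteins for decay, had the highest level of the list, 191.8 CPM in replicate 1 and 220.8 CPM in replicate 2. Its relative Csnk1e had 57.9 and 81.6 CPM. Nr1d2, a close relative of Nr1d1, had 22.3 and 27.9 CPM, and Npas2, which can replace CLOCK, 9.09 and 9.95 CPM. Tef, a bZIP relative of Dbp, had 29.8 and 41.8 CPM, while Hlf had 3 and 2 reads. Rorb and Bhlhe41 had 0 reads in both libraries.

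Beyond counting, the reads give transcript structure as far as each read reached. The authors sorted models into classes: annotated (equal to a GENCODE M21 transcript), incomplete (part of an annotated chain of introns), new in catalog and new not in catalog (chains absent from the annotation), and genomic. Of the members' reads, 54.1% in replicate 1 (95% Clopper-Pearson interval 49.4 to 58.6) and 64.3% in replicate 2 (58.0 to 70.2) matched a whole annotated transcript. Over all genes the shares were 76.5% and 81.8%. Incomplete reads made up 24.6% and 14.7% of the members' reads, against 11.6% and 7.08% over all genes. For Per1, Per2 and Clock the annotated share was at most 11.8% in either library.

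**Figure D3:**
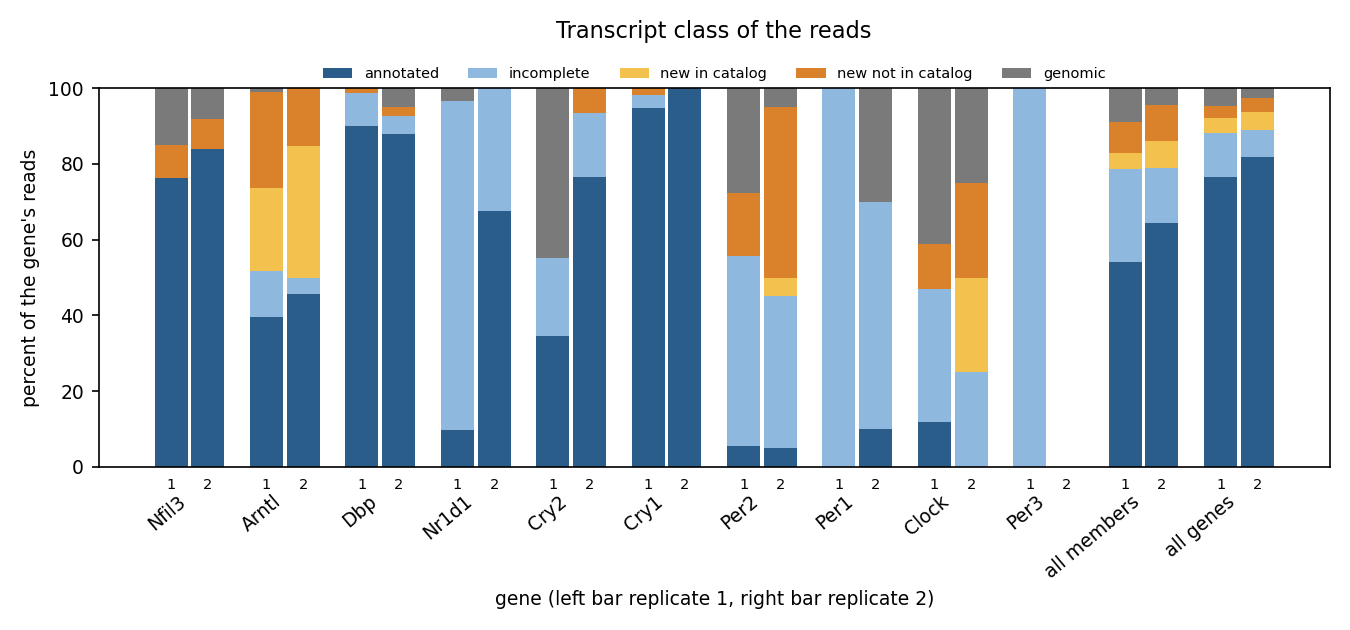
Percent of each gene's reads (vertical axis) by the authors' transcript class, for replicate 1 (left bar) and replicate 2 (right bar) of each member, of all members together and of all genes. Cry1 and Dbp are mostly annotated in both libraries, Per1 and Per2 are mostly not, and Nr1d1 differs between libraries.

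Nr1d1 differed most between libraries. Reads of whole annotated transcripts were 6 of 61 in replicate 1 (9.84%, interval 3.70 to 20.2) and 27 of 40 in replicate 2 (67.5%, interval 50.9 to 81.4). The difference of −57.7 percentage points passed the two-sided Fisher's exact test (adjusted p = 9.69e-08) and ranked 24 in size among the 4554 genes that had 20 or more reads in both libraries. Of 5 members tested, Nr1d1 and Cry2 were called, both lower in replicate 1, where 12.6% of all genes were called in either direction and 12.3% were lower in replicate 1. Thus nearly all calls over the whole transcriptome had this direction, and the median difference of all genes was −4.02 points.

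In Nr1d1 the balance lay between one short and one complete form. The 4-exon model that begins inside exon 5, at position 98770426, had 41 reads in replicate 1 and 5 in replicate 2, or 67.2% and 12.5% of the gene's reads. The complete annotated transcript with 8 exons had 4 and 26 reads, or 6.56% and 65.0%. Exon 4 was overlapped by 11.5% of reads in replicate 1 and 77.5% in replicate 2, exon 5 by 82.0% and 95.0%, and the last exon by 96.7% and 97.5%. The start of the short model is also the annotated start of a 2-exon M21 transcript that had 2 and 1 reads. Over the members, 79.2% of the 5′ ends of models outside the annotated class in replicate 1 and 81.1% in replicate 2 lay at annotated exon edges, so a model end need not be the end of its reads. Counted on annotated models alone, Nr1d1 had 6 and 27 reads (log2 ratio −3.25, adjusted p = 5.29e-08 by the exact test). These are the annotated reads of the share test above, so this is not a second result. In that setting 1132 of 8120 genes were called. Over all its reads, 61 and 40, Nr1d1 was not called (log2 ratio −0.66, adjusted p = 0.119 by the exact test).

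Cry2 showed the same direction. Whole annotated transcripts took 10 of 29 reads in replicate 1 (34.5%, interval 17.9 to 54.3) and 23 of 30 in replicate 2 (76.7%, interval 57.7 to 90.1), with an adjusted p of 0.0150 by the exact test. The annotated Cry2 transcript with 12 exons had 8 and 21 reads, and 13 reads of replicate 1 alone formed a single-exon genomic model of 125 bases at the 3′ end of the gene. Without the genomic class Cry2 had 16 and 30 reads, too few in replicate 1 for the share test. Its read count then had a log2 ratio of −2.12 (adjusted p = 1.54e-05 by the exact test). All genomic reads of Cry2 lay in replicate 1, so leaving them out widens the difference and is not a separate check. With the length and GC trend removed its count was not called (−0.97, adjusted p = 0.0702 by the exact binomial test). First-exon coverage was 34.5% in replicate 1 and 83.3% in replicate 2.

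The shares of Arntl (39.6% in replicate 1 and 45.7% in replicate 2), Dbp (90.0% and 87.8%) and Nfil3 (76.3% and 84.0%) were not called, with adjusted p values of 0.914, 1 and 0.755 by the exact test. Whole libraries differed in the same sense as Nr1d1 and Cry2: the mean length of the models, weighted by reads, was 2314 bases in replicate 1 and 2466 bases in replicate 2, and genomic reads were 4.66% and 2.46% of all. The part of read length in the Nr1d1 and Cry2 values was not tested.

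Cry1 was read nearly whole in both libraries. The annotated transcript with 13 exons and 3026 bases had 55 of 58 reads in replicate 1 and 11 of 11 in replicate 2. Its first exon was overlapped by 98.3% and 100% of reads, though model ends need not be read ends and do not locate the start used. The 250 bases before the RefSeq start in GRCm38.p6, which overlap the outer edge of that exon in M21, are shown with its E-box CACGTG in capitals, 60 bases before the start (minus strand, chr10:85185055-85185304).
Cry1 promoter: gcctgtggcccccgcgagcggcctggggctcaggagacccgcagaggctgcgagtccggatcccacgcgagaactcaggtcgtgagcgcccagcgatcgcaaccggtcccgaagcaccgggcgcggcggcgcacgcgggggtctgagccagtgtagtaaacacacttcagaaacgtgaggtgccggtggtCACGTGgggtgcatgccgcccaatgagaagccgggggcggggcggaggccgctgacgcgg
CACGTG, which reads the same on both strands, was found in the windows of Cry1 and Per1, 2 of 13 windows of the 9 members with an entry, and in 6.02% of 32851 windows of all genes. The D-box letters TTATGNAA, on either strand, were in Per1 and Per3 and in 3.07% of all windows. The element bound by NR1D1 and the ROR receptors, searched as AA, any base and TAGGTCA on either strand, was in no member's window and in 0.177% of all. These matches describe letters within 250 bases of a start only.

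The period genes were read mainly from their 3′ ends. The protein-coding Per1 transcript with the most exons, 23 over 4671 bases, had no complete read. No read in either library reached its first exon, although all 20 reads in replicate 1 and 9 of 10 in replicate 2 overlapped its last exon. A model of the last 5 exons, of 2008 bases, held 9 and 5 Per1 reads. In replicate 2, 1 read matched an annotated 18-exon Per1 transcript as a whole, which has another annotated first exon, at 69095217 to 69095303. For the annotated Per2 transcript of 5833 bases, each library had 1 complete read, and the first exon was overlapped by 1 of 18 reads in replicate 1 and 2 of 20 in replicate 2. A 5-exon model of the 3′ end of Per2 held 8 and 2 reads. The single Per3 read lay within the last exon.

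Models of Per2 reads began in several exons, and a model end need not be the end of its reads. The annotated first exon (91459173 to 91459324) held 1 read in replicate 1 and 2 in replicate 2. A first exon absent from the annotation, at 91441918 to 91442178 in an intron, held 2 reads in each library, and another at 91445898 to 91446111 held 1 in each. Exons at 91445870 to 91446103 and 91444985 to 91445501 held 1 read of replicate 2 each. The latter begins on the last base of annotated exon 5 and runs into the intron after it. Nearer the 3′ end, a first stretch at 91420126 to 91420406 held 1 read in each library and one at 91419888 to 91420406 1 read of replicate 2. Both begin on the last base of annotated exon 21 and run into the intron after it, so they do not locate a start. Of the reads spliced into exon 7 at its start, 2 of 4 in replicate 1 and 2 of 8 in replicate 2 came from the exon at 91441918. These are single reads and pairs of reads, and no difference between libraries can be told at this depth.

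**Figure D4:**
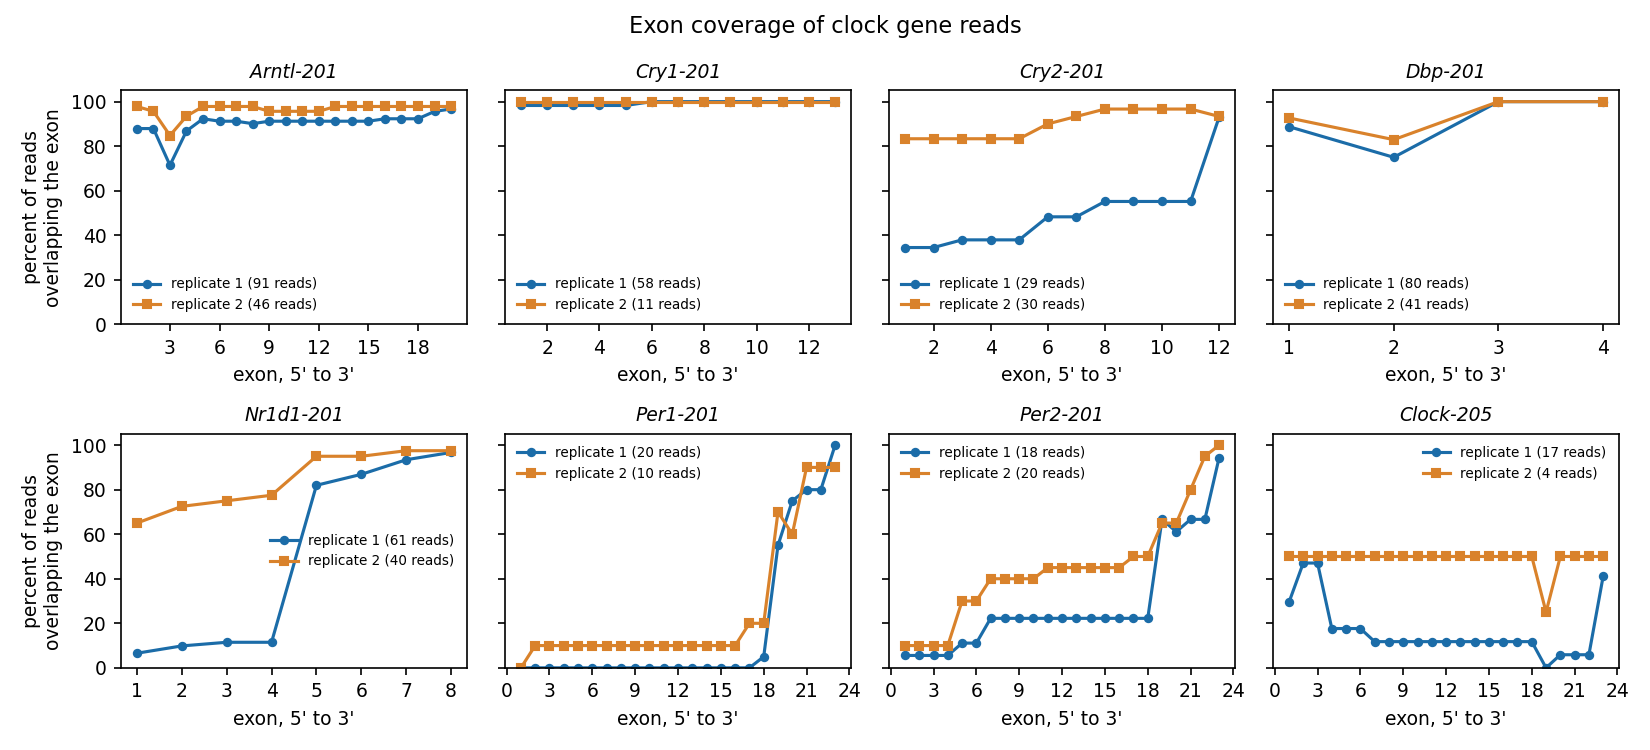
Percent of reads whose model overlaps each exon (vertical axis) along the exons of 1 annotated transcript of each of 8 members, 5′ to 3′ (horizontal axis), in replicate 1 (circles) and replicate 2 (squares). Cry1 is covered evenly, Per1 and Per2 fall away before exon 19, and Nr1d1 in replicate 1 jumps at exon 5.

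Clock had no complete read of the protein-coding Clock-205, which has 23 exons. Genomic models took 7 of 17 reads in replicate 1 and 1 of 4 in replicate 2. Of these 4 reads of replicate 1 formed a single-exon model of 4141 bases. The retained-intron transcript Clock-203 had 2 reads in replicate 1 and 0 in replicate 2. Reads of replicate 1 used both annotated first exons, 5 at the outer and 3 at the inner one, and both such reads of replicate 2 used the outer. One read of replicate 2 spanned 23 exons and ended in a last exon absent from the annotation, at 76200339 on the minus strand.

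Arntl was the member with the most new chains of introns. Of 45 new chains over the members, 20 belonged to Arntl, holding 43 reads in replicate 1 and 23 in replicate 2, and 5 of these 20 were read in both libraries. Over all members 9 of 45 chains were read in both. Many of these chains held a single read, which cannot lie in both libraries. The same share over all genes was not computed, so no trait of the members can be read from these counts. Arntl-201, with 20 exons and 2908 bases, had 35 and 21 reads, and the next chain, which differs from it only in the start of exon 13, had 14 and 9. The authors' class of that chain was new not in catalog in replicate 1 and new in catalog in replicate 2, although the introns were the same.

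The inner acceptor of exon 13, at position 113299190, was joined to exon 12 in 24 of 83 reads in replicate 1 (28.9%, interval 19.5 to 39.9) and in 12 of 44 in replicate 2 (27.3%, interval 14.96 to 42.8). The libraries did not differ beyond counting error. Its use removes the 3 coding bases CAG shown above and keeps the reading frame. Whether aligned reads placed these bases correctly, and whether the alleles of both parental strains used the site alike, was not tested.

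Exon 3 of Arntl, 128 bases that lie before the coding sequence, was skipped alone by 11 of 79 reads leaving exon 2 in replicate 1 (13.9%, interval 7.16 to 23.5) and 4 of 44 in replicate 2 (9.09%, interval 2.53 to 21.7). Exons 3 and 4 were skipped together by another 4 of the 79 reads in replicate 1 and 2 of the 44 in replicate 2. The annotated 21-base exon, 7 codons in length, was included in 5 of 83 reads in replicate 1 (6.02%) and 3 of 45 in replicate 2 (6.67%). The outer acceptor of exon 17, which adds 15 bases, was used by 5 of 84 (5.95%) and 2 of 45 (4.44%). All intervals overlapped between libraries, and the other choices were single reads or were read in 1 library.

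**Figure D5:**
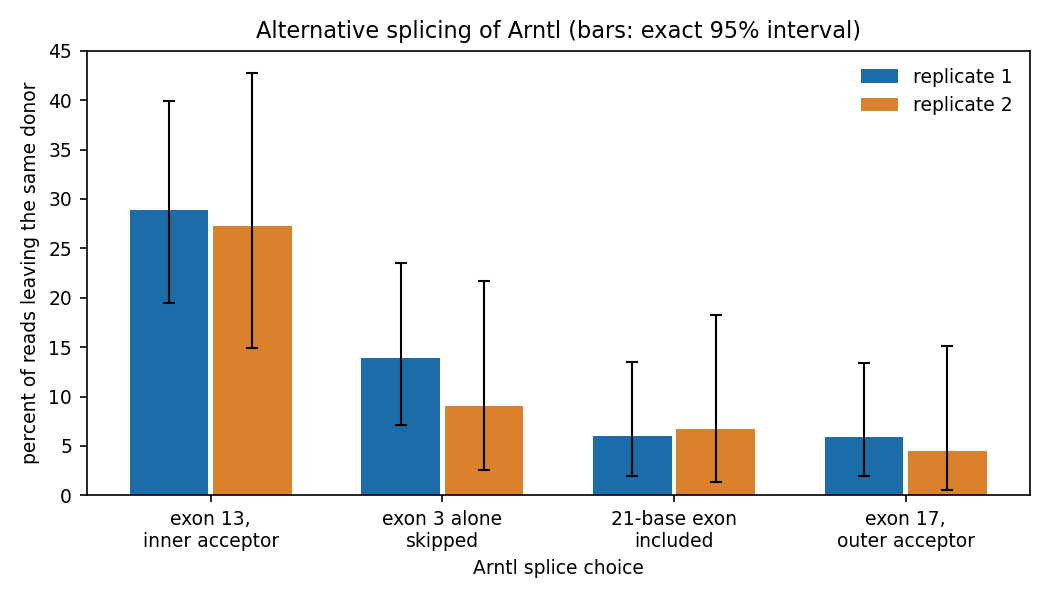
Percent of reads leaving the same donor (vertical axis) that made each of 4 Arntl splice choices, in replicate 1 (left bars) and replicate 2 (right bars), with exact 95% Clopper-Pearson intervals. The inner acceptor of exon 13 stands near 28% in both libraries and the other 3 choices lower.

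Of the outputs, Dbp and Nfil3 were read mostly whole. Dbp-201, with 4 exons, had 53 reads in replicate 1 and 30 in replicate 2. Dbp-204, which lacks the 411 bases of exon 2, had 12 and 4 reads. Of the reads that left exon 1, 12 of 66 (18.2%, interval 9.76 to 29.6) in replicate 1 and 4 of 35 (11.4%, interval 3.20 to 26.7) in replicate 2 went straight to exon 3. The intervals overlap, and the skipped length is a multiple of 3. Dbp-205, which starts inside the second intron, had 7 and 2 reads.

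The annotated Nfil3 transcript, with 2 exons, was matched by 71 of 93 reads in replicate 1 and by 42 of 50 in replicate 2. A first exon absent from the annotation, 735 bases upstream of the annotated start (52981808 to 52982000), was joined to the coding exon in 4 and 2 reads, or 5.06% and 4.35% of the reads spliced at that site. Another unannotated exon edge, at 52977647, was joined there in 2 reads of each library. Genomic single-exon models of 912 bases in replicate 1 and 911 bases in replicate 2 held 14 and 4 reads at the 3′ end. For the share of the main transcript, 3 members could be tested, Arntl, Dbp and Nfil3, and 0 were called by the exact test (0.517% of 4062 genes were), with differences of −3.42, −8.48 and −1.43 percentage points. None of the 3 had an unadjusted p under 0.05.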

How the data were processed

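Adrenal RNA of 2 libraries was read as long molecules, replicate 1 and replicate 2 of 1 group. The authors deposited whole-number read counts per transcript model, not normalised, with the matching models on mm10 and GENCODE M21 per the labels and file headers. Aligner, platform and use of strand in counting are not stated in the sources used here, so reads of genes that overlap on opposite strands, such as Nr1d1 and Thra or Dbp and Sphk2, are uncertain. Each annotated model of the members was compared with M21 in each library, and 0 of these 82 comparisons differed.

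Counts were summed per gene over all classes and scaled to CPM over annotated nuclear genes. Fisher's exact tests (scipy 1.17.1, pandas 2.3.3) compared the libraries, since 1 library on each side leaves no replicate spread, and ratios used 0.5 added reads. Shares were called at 10 percentage points or more with an adjusted p under 0.05. Intervals cover counting error only, and copies made by PCR cannot be told from separate molecules.

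All 10 members are named in every result, with any gene of the second clock list, the members' most read annotated models and their new chains read in both libraries. Other chains and positions given were chosen after their values were seen. Members and lists were chosen with earlier results of these data known. Alternatives covered scaling (edgeR 4.0.16 TMM, DESeq2 1.42.0 size factors), classes, read minimums, added reads, the fold minimum and a length and GC trend. Sequences of new exons were not analysed here.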

Additional observations from a re-analysis of the deposited data

How the results depend on the processing

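Of the summary results under the alternatives, 37 values stayed within the bound used and 8 moved. The bound was 1.5 times for a count and the SD over the libraries for a level or a class share. Members called between libraries were 1 of 6 (Cry2) with at least 50 reads over both libraries, where Per2 was not tested and 648 of 5519 genes were called. They were 1 of 9 (Cry1) with the length and GC trend removed, against 859 of 10170 genes, and 3 of 6 (Cry1, Cry2 and Nr1d1) on annotated transcripts alone, against 1132 of 8120. Genes called were 1823 of 10170 with no fold minimum, against 971. The members' summed level was 333.6 CPM on annotated transcripts alone. Members with a called annotated share were 0 of 1 with at least 50 reads in each library, against 371 of 2098 genes, and 1 of 4 (Nr1d1) with genomic reads left out, where Cry2 was not tested and 401 of 4397 genes were called. With at least 50 reads, 0 members could be tested for the main transcript share, so that setting, counted as unmoved, tests nothing. New chains read in both libraries were 2 at a minimum of 3 reads in each and 13 when splice sites could differ by 10 bases, against 9. Leaving out 1 library gave sums of 387.0 to 501.3 CPM and annotated shares of 54.1% to 64.3%. With 2 libraries each one always lies within their SD of the mean, so these values, counted as unmoved, could not move.

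Over the main setting and the alternatives, the log2 ratio of Per2 lay between −1.76 and −1.12 (called in 8 of 9 settings). That of Cry2 lay between −2.33 and −0.97 (10 of 11). Adding 1 read or dropping the fold minimum left the adjusted p values as they were, so these settings are not separate checks. The setting that lost both calls was the one with the length and GC trend removed. Cry1 lay between 1.03 and 1.26 (called in 2 of 11), Nr1d1 between −3.25 and −0.35 (1 of 11), and Per1, never called, between −0.33 and 0.22. Of the second clock list, Tef passed with annotated transcripts alone (−2.29, adjusted p = 0.000592 by the exact test) and without the genomic class (−1.47, adjusted p = 0.0169 by the exact test), and Rora, Bhlhe40 and Noct passed in every setting. Scaling moved the ratios by at most 0.03. Levels on annotated transcripts alone were lower for Arntl (44.97 CPM), Nr1d1 (36.06), Per1 (1.22), Per2 (1.76) and Clock (1.08), which puts Nr1d1 below Cry1 (43.08). Beyond these the cause was not tested. Depth limits Clock, Per1 and Per2, with 4 to 20 reads in a library, and Per3. No paired analysis was possible because there is 1 group.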

Other observations

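Several members were overlapped by models placed on the opposite strand. Use of strand in counting is not stated, and all reads of a model were counted wherever any part of it overlapped the gene. New gene models antisense to Arntl held 11 reads in replicate 1 and 5 in replicate 2, those at Nfil3 10 and 0, at Per1 6 and 1, and at Clock 1 and 3. At Per3 such models held 3 reads in replicate 1 and 0 in replicate 2, beside its single sense read, too few to rank. Per2 and Nr1d1 had 2 and 0 each. Annotated neighbours were read as well, Thra at Nr1d1 with 29 and 21 reads, Sphk2 at Dbp with 26 and 12 and Gm45355 at Arntl with 1 and 0. On the same strand as Clock, Ube2n-ps1 held 6 and 4 reads, where Clock itself had 17 and 4. Whether reads were shared between Ube2n-ps1 and Clock was not tested.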
